A study of Mus musculus with 62 samples.

Results

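The genes described here are 8 genes of myelinating Schwann cells, the glia that wrap axons in peripheral nerve: Mbp, Pmp22, Prx, Mal, Cnp, Mag, Cldn19 and Sox10. They were taken by symbol from a table of 47643 gene symbols measured in mouse gastrocnemius, a calf muscle, and all 8 were found. The study followed female mice that were 2 months old and received 1 of 3 injections: cachectic melanoma cells (CAC), which cause wasting of muscle and fat, non-cachectic melanoma cells (NCAC), or a mock injection (Con). Muscle RNA was sequenced 2, 4, 6 or 8 weeks after the injection, in 5 libraries per group and week, with 7 in CAC at 8 weeks, which made 62 libraries. The series design names NCI Ath/nude mice and the sample labels name C57BL6/J, so the strain shared by all groups is not settled here. Nothing in the labels says that animals were pooled. The labels call the libraries biological replicates.

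A myelinating Schwann cell winds its membrane around 1 segment of an axon and compacts it into myelin. Compact myelin holds the basic protein of Mbp and the membrane protein of Pmp22, whose gene dosage is altered in inherited neuropathies of people. Periaxin (Prx) links the outer membrane to the basal lamina, Mal encodes a lipid raft proteolipid, and Cnp an enzyme of the cytoplasmic channels of myelin. Mag lies on the membrane next to the axon, claudin 19 (Cldn19) forms tight junctions within the myelin sheath, and Sox10 is the transcription factor that maintains the Schwann cell lineage and switches on myelin genes. In a muscle these cells lie in the intramuscular nerve branches, which make up a small part of the tissue.

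Sox10 and its partners bind DNA through a short core, so the promoters were searched for ACAAAG on either strand, and the windows of the genes whose results are described most are shown. RefSeq, on build GRCm38.p6, gave windows of 250 bases before to 50 after a gene start for 6 of the 8 genes, while Mbp and Sox10 are named only. Pmp22 had 4 windows, Mag 3 and Cldn19 2. Of these only the window nearest the gene start in GENCODE M21 is described. The core was found in the windows described for Cnp and Mag, which is 2 of 6. It was found in 18.7% of all 32851 windows of 300 bases, a share of windows and not of genes. Cnp has it at position -167 and Mag at -126, where positions are counted back from the gene start, and the match stands in capitals (for Mag, on the opposite strand). The windows are chr11:100574689-100574988 on the plus strand for Cnp, chr7:30914814-30915113 on the minus strand for Mag, chr11:63128732-63129031 on the plus strand for Pmp22 and chr7:27499074-27499373 on the plus strand for Prx. A match is a description and not a bound site, and the lack of one says only that these letters are not in the window.
Cnp: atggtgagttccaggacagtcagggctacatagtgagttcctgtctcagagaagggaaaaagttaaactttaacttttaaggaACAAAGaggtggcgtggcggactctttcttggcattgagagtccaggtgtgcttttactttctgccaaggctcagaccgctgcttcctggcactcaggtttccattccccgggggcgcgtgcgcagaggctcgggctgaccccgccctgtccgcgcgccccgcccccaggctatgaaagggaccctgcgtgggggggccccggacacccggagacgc
Mag: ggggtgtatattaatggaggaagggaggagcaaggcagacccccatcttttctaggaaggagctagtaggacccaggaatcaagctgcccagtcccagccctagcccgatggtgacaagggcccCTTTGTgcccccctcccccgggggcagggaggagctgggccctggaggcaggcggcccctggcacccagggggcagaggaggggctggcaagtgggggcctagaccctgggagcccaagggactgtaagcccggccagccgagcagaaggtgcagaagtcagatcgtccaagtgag
Pmp22: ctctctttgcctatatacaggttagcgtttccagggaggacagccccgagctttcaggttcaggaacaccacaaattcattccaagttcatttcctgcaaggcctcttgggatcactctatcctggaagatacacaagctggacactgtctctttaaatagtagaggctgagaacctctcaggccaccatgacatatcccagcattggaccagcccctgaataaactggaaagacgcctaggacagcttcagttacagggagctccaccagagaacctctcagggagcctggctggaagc
Prx: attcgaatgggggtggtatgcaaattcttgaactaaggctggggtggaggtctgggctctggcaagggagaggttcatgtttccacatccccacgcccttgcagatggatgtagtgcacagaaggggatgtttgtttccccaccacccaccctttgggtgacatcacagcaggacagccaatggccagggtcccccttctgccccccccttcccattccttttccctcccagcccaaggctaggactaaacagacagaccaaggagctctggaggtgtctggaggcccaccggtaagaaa

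The libraries held an estimated 40.3 to 49.1 M reads, with a median of 47.0 M. A value of TPM, the usual measure of transcript abundance, is a share of the library after division by transcript length, and levels are compared between genes on that scale. By median TPM over the 62 libraries, Pmp22 came first at 54.7 (20.7 to 147), on chromosome 11 at 63128982 to 63159547 of GRCm38. It was followed by Mbp at 11.8 (4.06 to 44.4), Prx at 7.48 (3.08 to 22.0), Cnp at 6.74 (3.10 to 14.3) and Mal at 3.93 (1.29 to 12.4). Sox10 had 2.36 TPM (1.18 to 6.00), Cldn19 1.82 (0.608 to 5.11) and Mag 0.627 (0.193 to 1.78). The ranges of neighbours in this order overlapped. On build GRCm38, Mbp lies on chromosome 18 from 82475146 to 82585637, Prx on chromosome 7 from 27499324 to 27520214, Mal on chromosome 2 from 127633226 to 127656695 and Cnp on chromosome 11 from 100574904 to 100591729. Sox10 lies on chromosome 15 from 79154908 to 79165240, Mag on chromosome 7 from 30899176 to 30914873 and Cldn19 on chromosome 4 from 119255414 to 119262438, and GENCODE M21 lists all 8 as protein coding. Mag rested on an estimated 13.0 to 141 reads per library, Sox10 on 69.7 to 368 and Pmp22 on 1032 to 6965. All 8 genes passed the filter of at least 1 TPM in at least 5 libraries, which kept 12364 genes. Oligodendrocytes of the central nervous system also use Mbp, Cnp, Mal and Mag, but their defining genes Mog, Mobp, Opalin, Ermn and Hapln2 were at or under 0.270 TPM in every library, and 0 of the 5 passed the filter.

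The plainest feature of these genes was their spread between mice of 1 group. Mbp had 16.9, 8.04, 4.06, 42.1 and 7.32 TPM in the 5 Con libraries at 2 weeks, a range of 10.4-fold within mock-injected mice. Prx had 9.05, 4.76, 3.08, 20.9 and 4.97 TPM and Mal 4.91, 2.98, 1.29, 12.3 and 2.57 TPM in the same 5. The same library, replicate 4, was the highest for all 8 genes, and replicate 3 was the lowest for all 8. The summed TPM of the 8 genes was 2.40-fold, 2.65-fold and 5.81-fold higher in the highest than in the lowest library of CAC, NCAC and Con at 2 weeks. It was narrowest in Con at 8 weeks, from 46.3 to 76.8 TPM, a ratio of 1.66.

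In CAC at 4 weeks Mbp had 6.47, 34.5, 6.15, 5.93 and 9.34 TPM, and replicate 2 was the highest library for all 8 genes. In NCAC at 8 weeks Mbp had 11.8, 9.52, 7.06, 6.38 and 43.2 TPM, and replicate 5 was the highest for all 8. High libraries of this kind occurred in all 3 conditions: 1 library held the highest value of all 8 genes in CAC at 2 and 4 weeks, in NCAC at 2 and 8 weeks and in Con at 2, 4 and 6 weeks. After subtraction of group means, the SD of log2(TPM + 1) was 0.83 for Mbp, 0.70 for Mal, 0.68 for Pmp22, 0.67 for Prx, 0.47 for Cldn19, 0.43 for Sox10, 0.42 for Cnp and 0.29 for Mag. The median over all 12364 genes was 0.19. Groups held 15.2% of the variance of Mbp, 24.9% of that of Pmp22 and values between these for the other 6, against a median of 50.3% over all genes.

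**Figure D1:**
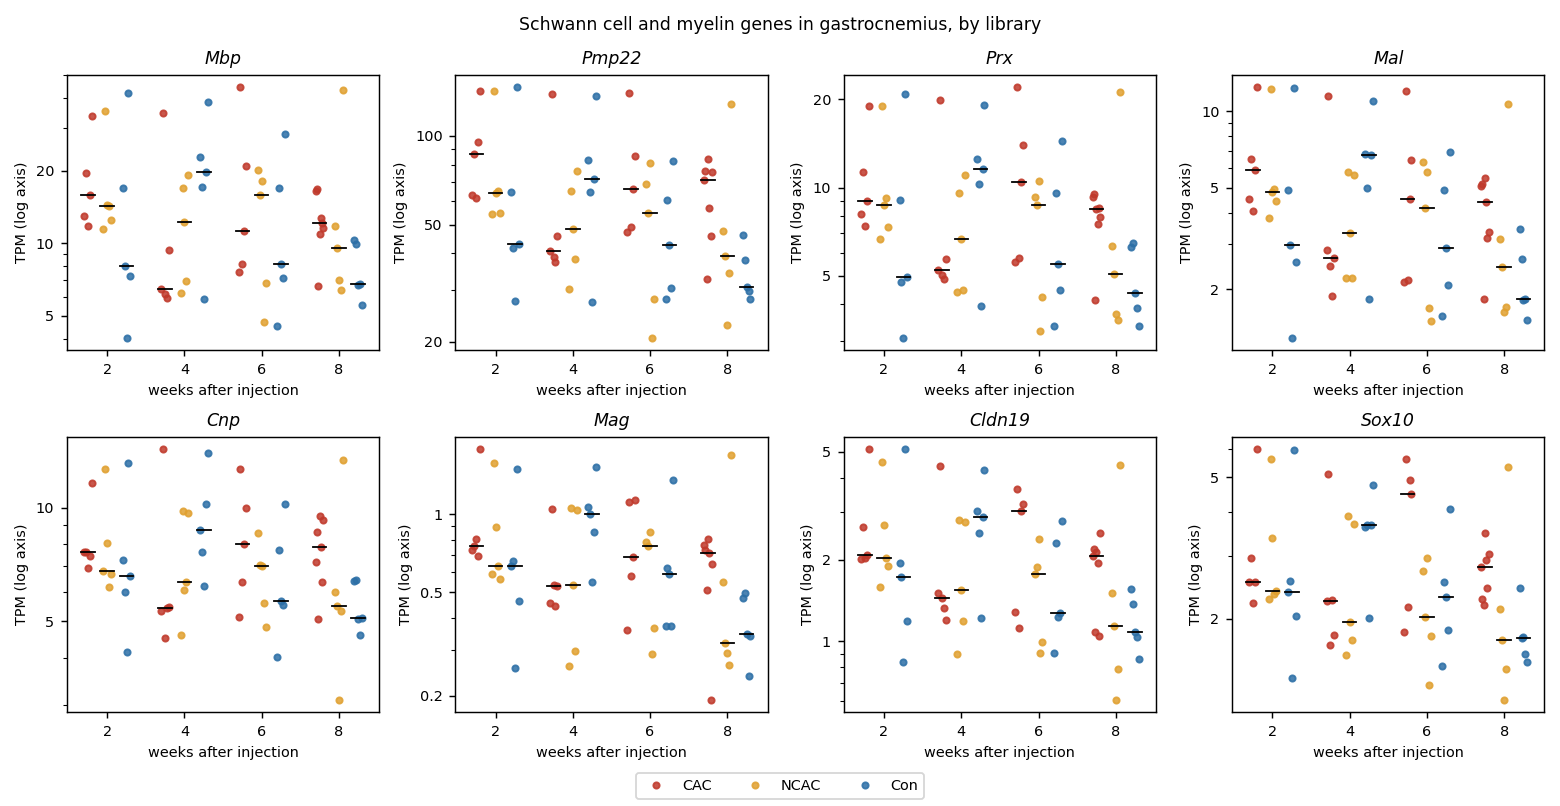
TPM of each gene (log axis) in every library, by weeks after injection; points are libraries, coloured by condition, and bars are group medians. High libraries stand apart in all 3 conditions, such as 42.1 TPM of Mbp in Con at 2 weeks.

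These within-group deviations were shared. Over the 28 pairs of the 8 genes, Pearson's r of the deviations across the 62 libraries was 0.88 to 0.99, with a median of 0.93; the points share libraries and depth, so r is a description. Each gene against the mean of the other 7 gave r from 0.92 for Mag to 0.98 for Mal. The median r of all genes outside the set with the mean of the 8 was 0.18, and 21 genes outside it reached 0.9. Among the most alike were Plekha4 at 0.98, Pllp, the gene of the myelin protein plasmolipin, at 0.97, Bcas1 at 0.97, Drp2, which binds periaxin, at 0.96, Vat1l at 0.96, Cadm4, an adhesion gene of the Schwann cell and axon contact, at 0.96, and Kif19a at 0.95.

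Other gene lists followed the 8 genes less closely. Among 15 tested myelin genes outside the set the median r was 0.82 (0.07 to 0.97). Node and paranode genes had a median of 0.56 over 6 genes, and perineurium and endoneurium genes 0.52 over 7. Genes of non-myelinating and repair Schwann cells had 0.50 over 7, with S100b, a glial calcium-binding protein gene, at 0.92 and Ngfr, the neurotrophin receptor gene of repair cells, at 0.25. Fibroblast genes had a median of 0.27, endothelial genes 0.24, denervation genes of muscle fibres 0.06 and muscle fibre genes -0.08. In bulk tissue, more Schwann cells and more RNA per Schwann cell cannot be told apart.

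**Figure D2:**
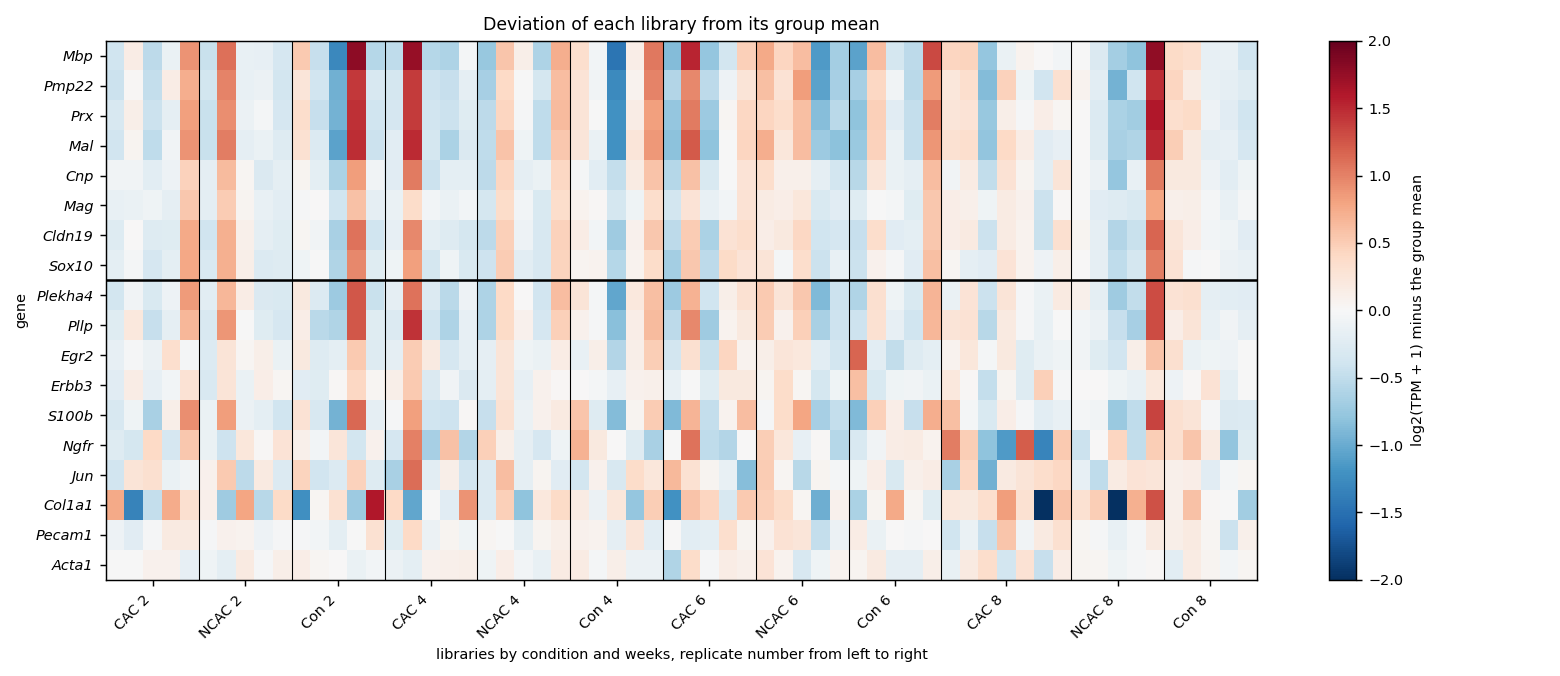
Deviation of log2(TPM + 1) from the group mean for the 8 genes (above the line) and comparison genes (below it), with 1 column per library, red for higher and blue for lower. The 8 genes, Plekha4 and Pllp change colour together, while Col1a1, Pecam1 and Acta1 do not follow them.

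**Figure D3:**
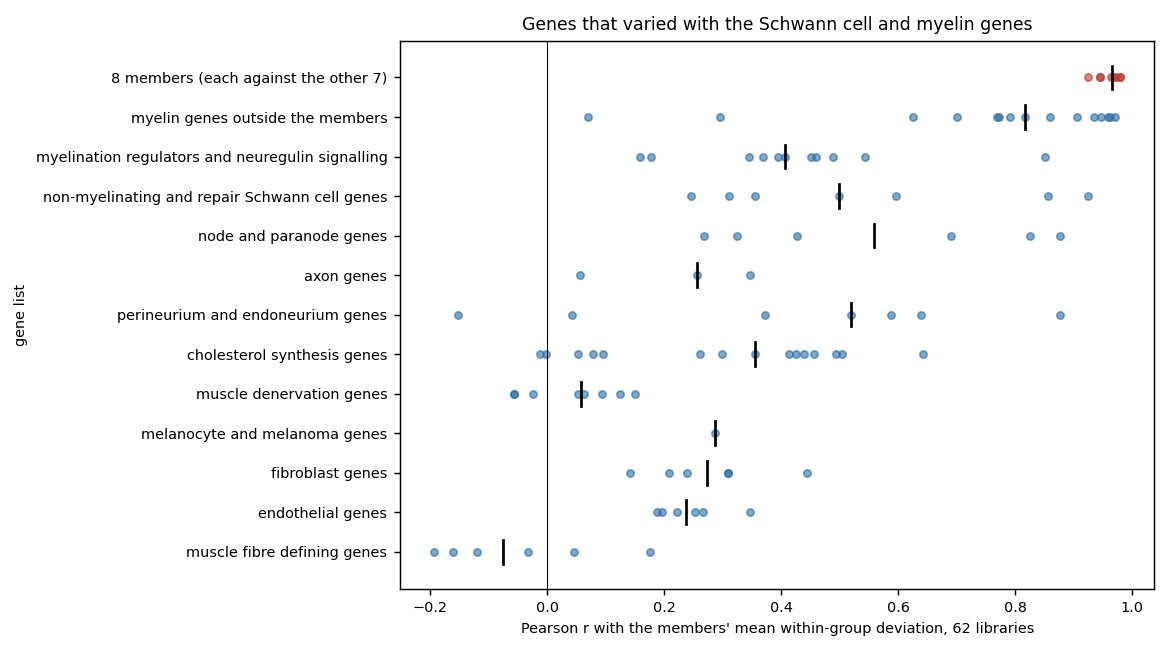
Pearson r of each gene with the mean within-group deviation of the 8 genes over 62 libraries, by gene list; points are genes and bars are medians. The 8 genes lie between 0.92 and 0.98, and the muscle fibre genes centre on -0.08.

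Against this spread, differences between conditions did not pass the test in any week in the main fit. That fit pools the spread within all groups, including those with a high library, and the result depends on this choice. In CAC against Con, a fit of the 2 groups alone called 7 of the 8 genes higher at 8 weeks, all but Mag. Array weights also called some of the 8 in this comparison. Shares of all genes called in these fits are not given here. The comparison of CAC with Con asks whether wasting muscle differs in these genes from mock-injected muscle. At 8 weeks Pmp22 had a lowest, median and highest value of 32.7, 71.1 and 83.7 TPM in the 7 CAC libraries, against 46.0, 37.9, 30.6, 29.8 and 28.0 TPM in the 5 Con libraries. Of the CAC libraries 5 were above all Con libraries, and the other 2 lay within the range of Con. The log2 change of Pmp22 was 0.82 (SE 0.383, 95% interval 0.05 to 1.59), with an adjusted p of 0.0529 by limma, which missed the threshold of 0.05. After median-ratio scaling, which sets the typical gene to 0 change between libraries, it was 0.41, and the lowest adjusted p of any of the 8 was 0.36.

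At 8 weeks Mbp had 6.66, 12.1 and 16.8 TPM (lowest, median, highest) in CAC, against 10.3, 9.92, 6.71, 6.77 and 5.55 TPM in Con. Mal had 1.83, 4.42 and 5.46 TPM in CAC, against 3.45, 2.62, 1.81, 1.84 and 1.51 TPM in Con. Sox10 had 2.19, 2.80 and 3.48 TPM in CAC, against 2.44, 1.77, 1.78, 1.59 and 1.51 TPM in Con. The groups overlapped for each of these genes.

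Prx had 4.13, 8.49 and 9.49 TPM (lowest, median, highest) in CAC at 8 weeks, against 6.26, 6.48, 4.37, 3.90 and 3.37 TPM in Con, and the low CAC library, replicate 3, was within the range of Con. Cnp had 5.07, 7.88 and 9.48 TPM in CAC, against 6.40, 6.43, 5.07, 4.59 and 5.11 TPM in Con. Cldn19 had 1.05, 2.07 and 2.50 TPM in CAC, against 1.56, 1.37, 1.08, 1.04 and 0.859 TPM in Con. Mag, the gene with the fewest reads, had 0.193, 0.708 and 0.806 TPM in CAC, against 0.477, 0.499, 0.346, 0.239 and 0.340 TPM in Con, with 6 CAC libraries above all Con libraries and 1 below them. Of the 7 CAC libraries, 6 lay above all Con libraries for Mbp and Prx too, 5 for Cnp, Sox10 and Cldn19 and 4 for Mal. The log2 changes of the 8 genes at 8 weeks ran from 0.22 for Mag to 0.82 for Pmp22, with a median of 0.50, against a median of 0.36 over all genes. In the main fit none of the 8 was called, whereas 70.8% of the 12364 genes tested were. Of the 8 only Pmp22 had an unadjusted p under 0.05 there.

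At 4 weeks all 8 genes were below 0, with log2 changes from -0.83 for Mbp to -0.32 for Mag and a median of -0.41, against 0.17 over all genes. The lowest adjusted p was 0.187, for Mag; after median-ratio scaling the median was -0.60, 4 of the 8 had an unadjusted p under 0.05 and the lowest adjusted p was 0.0663. Without CAC replicate 2, the library that stood apart, the median was -0.71, 7 of the 8 had an unadjusted p under 0.05 and none was called (lowest adjusted p 0.0885). With all libraries kept, the 4-week median was -0.44 in NCAC against Con and -0.00 in CAC against NCAC. Values below Con were thus not particular to CAC. The median summed TPM of the 8 genes in Con was 127 at 4 weeks, against 68.3, 69.1 and 51.8 at 2, 6 and 8 weeks. At 4 weeks Mbp had 6.47, 34.5, 6.15, 5.93 and 9.34 TPM in CAC, against 22.9, 17.1, 5.84, 19.7 and 38.5 TPM in Con, and the groups overlapped. At 2 weeks the median was 0.43, and at 6 weeks 0.40, against 0.09 and 0.28 over all genes. The value at 2 weeks was 0.23 without CAC replicate 5 and 0.75 without Con replicate 4, with 0 calls in both cases. At 6 weeks Pmp22 had 47.1, 140, 49.2, 66.2 and 85.3 TPM in CAC, against 28.0, 60.6, 42.7, 30.6 and 82.2 TPM in Con, a log2 change of 0.65 (SE 0.414, adjusted p = 0.170). In the main fit none of the 8 genes was called at 2, 4 or 6 weeks and 0 had an unadjusted p under 0.05. The shares of all genes called there were 0.283%, 25.3% and 57.2%. With array weights Mbp, Cnp and Sox10 were called lower at 4 weeks. In the main fit, the F test of whether CAC minus Con changed over the 4 weeks called none of the 8 (adjusted p 0.237 to 0.356). It called 12.1% of all genes, and 0 of the 8 had an unadjusted p under 0.05. With array weights this test called 7 of the 8. Shares of all genes called with array weights are not given here. The array-weight counts therefore cannot be set against the 25.3% and 12.1% of the main fit.

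The comparison of CAC with NCAC asks the same within tumour-bearing mice, and it shares the CAC libraries with the comparison above. At 6 weeks Sox10 had 1.84, 5.63, 2.15, 4.92 and 4.50 TPM in CAC, against 2.73, 2.02, 2.97, 1.30 and 1.80 TPM in NCAC. Of the CAC libraries 3 lay above all NCAC libraries and the groups overlapped. Its log2 change was 0.55 (95% interval 0.02 to 1.08, adjusted p = 0.0591). At 8 weeks Prx had 4.13, 8.49 and 9.49 TPM (lowest, median, highest) in CAC, against 6.33, 5.07, 3.70, 3.53 and 21.1 TPM in NCAC, where replicate 5 was above every CAC library. Without that library the median change of the 8 genes at 8 weeks was 0.53 and 1 gene, Cnp, was called (adjusted p = 0.0376). With it, the median change of the 8 genes was 0.10 at 2 weeks, -0.00 at 4 weeks, 0.36 at 6 weeks and 0.25 at 8 weeks. The corresponding medians over all genes were 0.12, 0.17, 0.37 and 0.37. None of the 8 was called at any week, against 1.17%, 19.7%, 68.7% and 72.3% of all genes, and only Sox10 at 6 weeks had an unadjusted p under 0.05. After median-ratio scaling 3, 0, 4 and 0 of the 8 lay above 0 at 2, 4, 6 and 8 weeks, so the direction rests on the scaling. The F test over weeks called none of the 8 (adjusted p 0.539 to 0.966), against 20% of all genes, and 0 had an unadjusted p under 0.05.

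The comparison of NCAC with Con gave no calls among the 8 at any week, and 0% of all genes were called at each week. The median change of the 8 was 0.31 at 2 weeks, -0.44 at 4 weeks, -0.00 at 6 weeks and 0.26 at 8 weeks, and the value at 8 weeks was -0.04 without NCAC replicate 5. The intervals of the 8 genes reached from -1.64 to 1.59 on the log2 scale over the 4 weeks, and 0 had an unadjusted p under 0.05. In Con alone, the F test over weeks called none of the 8, with adjusted p from 0.643 to 0.925, against 0.59% of all genes. For none of the 12 comparisons did the libraries of 1 group lie wholly above or below those of the other for any of the 8 genes. Among all 12364 genes the groups did not overlap for 5.55%, 16.8%, 30.9% and 27% in CAC against Con at 2, 4, 6 and 8 weeks, for 9.58%, 14.3%, 41.8% and 25% in CAC against NCAC, and for 2.74%, 0.38%, 1.9% and 0.251% in NCAC against Con.

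**Figure D4:**
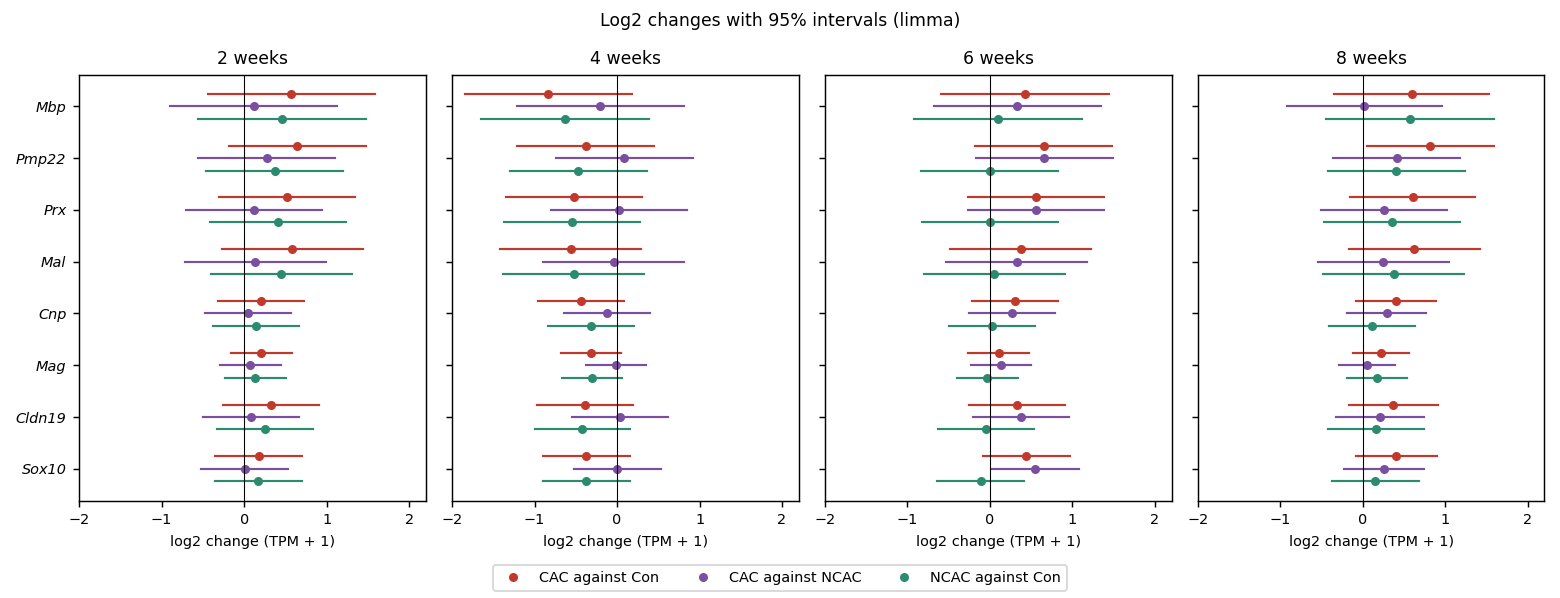
Log2 change on TPM + 1 of each gene with its 95% interval from limma, for CAC against Con, CAC against NCAC and NCAC against Con at each week. All intervals include 0 except those of Pmp22 in CAC against Con at 8 weeks, from 0.05 to 1.59, and Sox10 in CAC against NCAC at 6 weeks, from 0.02 to 1.08.

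The mean difference over the 4 weeks was also tested in the same fit, a comparison chosen after the data were seen. In CAC against Con it called 1 of the 8, Pmp22, at 0.43 (adjusted p = 0.0492), against 76.1% of all genes called; this call was lost in 24 of the 42 fits that left out 1 library. After median-ratio scaling it called none, against 56% of all genes. In CAC against NCAC it called none of the 8, against 79.6% of all genes, and none after scaling, against 56.4%; in NCAC against Con it called none, against 0% of all genes. Beside Pmp22 in CAC against Con, 0 of the 8 had an unadjusted p under 0.05 in these fits.

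Other genes of the same cells are given for CAC against Con at 8 weeks, where 65.3% of all genes rose and 5.55% fell, with a median change of 0.36; after median-ratio scaling 22.9% rose and 22.3% fell. Of 15 tested myelin genes outside the set 6 rose, 1 fell and 8 were not called, with a median of 0.49; after median-ratio scaling 1 rose and 1 fell. Ndrg1, whose loss causes a demyelinating neuropathy in people, averaged 18.8 ± 3.79 TPM in CAC against 7.88 ± 0.976 TPM in Con (SD, n = 7 and 5), and rose by 1.14 on the log2 scale (adjusted p = 1.03e-06). Mtmr2, a lipid phosphatase gene, and Cd9, a tetraspanin gene, rose by 0.51 and 0.77.

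Of 11 tested regulators of myelination 7 rose and 0 fell, a share near that of all genes, and 2 rose and 2 fell after median-ratio scaling. The coactivator gene Wwtr1 (TAZ) rose by 0.78 (adjusted p = 6.37e-07), Nab1, a partner of Egr2, by 0.51, and Erbb2, a neuregulin receptor gene, by 0.55. Egr2, the factor that drives myelin genes, was at 0.29 (adjusted p = 0.171) and Erbb3, the neuregulin receptor of Schwann cells, at 0.16 (adjusted p = 0.321). Muscle fibres and other cells also express several of these genes.

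Among genes of non-myelinating and repair Schwann cells 3 of 7 rose at 8 weeks, against 65.3% of all genes, and 2 after median-ratio scaling, against 22.9%. Jun, a transcription factor of the repair state that muscle also induces, rose to 109 ± 35.3 TPM in CAC (SD, n = 7), against 44.9 ± 4.26 TPM in Con (SD, n = 5), a log2 change of 1.18 (adjusted p = 4.04e-05). Scn7a, a sodium channel gene, rose by 1.47 (adjusted p = 2.20e-07) and the adhesion gene L1cam by 0.25 (adjusted p = 0.0308), which was lost after scaling (0.08, adjusted p = 0.535). Ngfr rose at 6 weeks by 1.28 (adjusted p = 0.00222) and at 8 weeks was at 0.55 (adjusted p = 0.122), while S100b was at 0.12 (adjusted p = 0.747). Other neighbours of the nerve included 3 of 7 perineurium and endoneurium genes, with the glucose transporter gene Slc2a1 up by 0.87 and the integrin gene Itgb4 by 0.84, and 2 of 7 after scaling. At the node, 2 of 6 genes rose, Nfasc by 0.90 and Ank3 by 0.68, and 2 after scaling. Only 3 of 10 axon genes passed the filter; Prph rose by 0.39 (adjusted p = 0.00534), while Stmn2 was at -0.17 (adjusted p = 0.196) and Uchl1 at -0.25 (adjusted p = 0.380). After median-ratio scaling Prph was at 0.23 (adjusted p = 0.128) and Stmn2 was called lower, at -0.35 (adjusted p = 0.0132). The axonal RNAs Nefl, Nefm and Nefh were at or under 0.344 TPM in every library.

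Of 15 cholesterol synthesis genes, whose product is a main lipid of myelin and which all cells use, 6 rose and 1 fell at 8 weeks, with Insig1 up by 0.74, Lss by 0.37 and Fdft1 by 0.79; after median-ratio scaling 0 rose and 4 fell. Of 8 tested muscle denervation genes 5 rose, a share near the 65.3% of all genes, and 3 rose after scaling, against 22.9% of all genes. Those that rose included the acetylcholine receptor gene Chrna1 by 1.67, the stress gene Gadd45a by 1.70 and Runx1 by 0.86. The denervation genes are genes of the muscle fibre, and their median r with the 8 genes was 0.06. Melanocyte genes, which are markers of another derivative of the neural crest, were low. Only Mitf of 10 passed the filter, Tyr, Oca2 and Mc1r were at or under 0.0588 TPM in every library, and Pmel, the highest of the other 9, reached 1.15 TPM. The species of the injected melanoma cells is not stated here, so these mouse genes may not mark them. Mitf rose by 0.46 at 8 weeks (adjusted p = 0.000669), and after median-ratio scaling was at 0.12 (adjusted p = 0.321). Of 6 endothelial genes 5 rose, Pecam1 by 1.09, and 1 fell; after scaling 2 rose and 1 fell. Of 6 fibroblast genes 2 rose, Dcn by 1.05 and Pdgfra by 0.88, and 2 after scaling. Fibroblasts and endothelial cells also carry some Pmp22 RNA. The summed TPM of the 6 fibroblast genes was 532 to 1157 in CAC, against 374 to 545 in Con at 8 weeks. Dcn made up most of this sum, with a mean of 579 TPM in CAC and 272 TPM in Con. The other 4 fibroblast genes beside Dcn and Pdgfra were not called. The part of these cells in the Pmp22 values was not tested.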

How the data were processed

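RNA of 62 gastrocnemius libraries was sequenced from stranded poly(A) libraries on an Illumina NovaSeq instrument, per the labels' protocols. The authors deposited 1 table of TPM values per gene symbol; the build is mm10, per the submitters' processing notes. Aligner, counter, annotation: not given in the sources used here. Groups were taken from the sample descriptions; the treatment tag, which names cachectic cells throughout, was set aside. The 8 genes, the lists and the comparisons were chosen with earlier results of these data known.

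Genes with at least 1 TPM in at least 5 libraries entered limma (version 3.58.1, R 4.3.3) on the log2(TPM + 1) scale, in 1 fit of 12 group means with a variance trend. The two-sided p-values were adjusted over every gene tested (Benjamini-Hochberg), with 0.05 as the threshold. The p-values measure the spread between these libraries. Read depth was estimated from steps in TPM and exon lengths of GENCODE M21, which matched 45134 symbols; 77.9% to 79.5% of values of up to 20 reads lay within 0.02 of a whole number. The methods were tested on simulated data, with independent normal values for each gene and the same SD in every group. The simulation held no shared deviations or high libraries like those of the 8 genes. It therefore cannot show how the test behaves on them. Named genes were the 8, fixed neighbours (Egr2, Erbb3, Ngfr, S100b and Jun), the genes most alike, and up to 3 genes of lowest p called per list in CAC against Con at 8 weeks; the axon, melanocyte and oligodendrocyte markers given by level only were chosen as defining genes. The fits were repeated with a pseudocount of 0.1, without the filter, with a filter at 5 TPM, and with median-ratio scaling, no mitochondrial genes, array weights, only the groups compared, a replicate block and each library left out. The mean over weeks was chosen after the data were seen. Some genes of the lists are not reported here.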

Additional observations from a re-analysis of the deposited data

Results flagged for a closer look

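Of 96 sets of libraries of 1 gene in 1 group, 30 held a library that stood apart from the rest by the gap to its nearest neighbour. For normally distributed values about 1 in 20 would do so. The gaps were taken on TPM without a log, where skew towards high values can raise that rate, so the excess is not measured. The 8 genes moved together between libraries, so these are few libraries seen through several genes. In NCAC at 8 weeks, replicate 5 stood above the other 4 in TPM with Mbp at 43.2, Pmp22 at 128, Prx at 21.1, Mal at 10.7, Cnp at 13.4, Sox10 at 5.33, Mag at 1.69 and Cldn19 at 4.45. In CAC at 4 weeks, replicate 2 stood above with Mbp at 34.5, Pmp22 at 139, Prx at 19.8, Mal at 11.5, Cnp at 14.3, Sox10 at 5.11, Mag at 1.05 and Cldn19 at 4.42, and its whole profile was also among those least like its own group. In NCAC at 2 weeks, replicate 2 stood above with Mbp at 35.4, Pmp22 at 142, Prx at 19.0, Mal at 12.2 and Cnp at 12.7. In CAC at 2 weeks, replicate 5 stood above with Cnp at 11.6, Sox10 at 6.00, Mag at 1.78 and Cldn19 at 5.10.

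In Con at 2 weeks, replicate 4 stood above with Sox10 at 5.98 and Cldn19 at 5.11. Single genes stood apart in 3 more libraries: Sox10 at 2.44 TPM in Con at 8 weeks, replicate 1, Mag at 1.35 TPM in Con at 6 weeks, replicate 5, and, below the rest, Prx at 4.13 TPM in CAC at 8 weeks, replicate 3.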

How the results depend on the processing

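The count of 0 called genes among the 8 held in all pairwise comparisons for a pseudocount of 0.1, no filter, median-ratio scaling and no mitochondrial genes. It also held with a filter at 5 TPM, but only for the genes that filter kept. Mag, at most 1.78 TPM, and Cldn19, above 5 TPM in too few libraries, could not be called there. In CAC against Con, array weights called 3 lower at 4 weeks (Mbp, Cnp and Sox10), 2 higher at 8 weeks and 7 in the test over weeks. A fit of the 2 groups alone called 7 higher at 8 weeks, all but Mag. The Con group at 8 weeks had the narrowest spread, and the cause was not tested. The main fit called 25.3% of all genes at 4 weeks, 70.8% at 8 weeks and 12.1% over weeks. Shares of all genes in the fits with array weights or 2 groups are not given here, so these counts cannot be set against them. Leaving out 1 library gave 0 to 1 calls in CAC against Con at 8 weeks (Pmp22 without CAC replicate 3 or 6 or Con replicate 1, adjusted p 0.0257, 0.0459 and 0.0429) and over weeks (Cnp without CAC replicate 2 of 4 weeks, adjusted p 0.045). It gave 0 to 1 in CAC against NCAC at 6 weeks (Sox10 without CAC replicate 1 or 3 or NCAC replicate 1 or 3, adjusted p from 0.0205 to 0.0477) and at 8 weeks (Cnp without NCAC replicate 5, adjusted p 0.0376). With every library kept, 68.7% and 72.3% of all genes were called in CAC against NCAC at 6 and 8 weeks. Shares of all genes with 1 library left out are not given here.

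Some directions turned: in CAC against Con, Mag at 6 weeks was at -0.014 after scaling, and Sox10 at 2 weeks lay between -0.0156 and 0.42 as libraries were left out; Cnp against NCAC at 8 weeks was at -0.0893 after scaling. After scaling the median of the 8 genes in CAC against Con at 8 weeks was 0.17, and all 8 were below 0 in CAC against NCAC at 8 weeks, where all 8 had been above 0, Pmp22 the farthest at 0.41 (-0.02 after scaling).

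The means over weeks were chosen after seeing the data. In CAC against Con the 1 call became 0 after scaling and lay between 0 and 1 as libraries were left out; in CAC against NCAC the count lay between 0 and 2, with 2 without NCAC replicate 5 of 8 weeks.

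Same replicate numbers do not mark a pairing of mice: over 60 same-numbered pairs, r of the deviations ran from -0.30 to 0.29 with a median of 0.00, and 16 were over 0.1. With a replicate block 1 gene was called in CAC against NCAC at 6 weeks, Sox10 (0.55, adjusted p = 0.0466), and no other call changed. Depth limits Mag most, which rested on a median of 49.0 reads.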
